A study of Homo sapiens with 14 samples.

Results

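The E2F transcription factors and the pocket proteins were followed in PANC-1 cells, an established line from a human pancreatic carcinoma, exposed to proanthocyanidins (PA), plant polyphenols, or to the solvent DMSO. Members were the genes with the symbols E2F1 to E2F8, RB1 and RBL1. Of these 10 genes, 9 had a row among the 28120 genes of the table of counts and the 25447 genes of the table of RPKM (read counts divided by gene length and by the library's read total), and E2F8 is not analysed here. The 3 activators were E2F1, E2F2 and E2F3, and the 6 measured members of the repressor class were E2F4, E2F5, E2F6, E2F7, RB1 and RBL1.

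The study sequenced RNA of 14 libraries in 7 groups of 2. The groups were PA at 20 µg/ml for 3, 12 and 24 h, and DMSO for 0, 3, 12 and 24 h. All groups share the one cell line and its medium with serum. The submitters call the replicates biological, and nothing given here says whether each came from its own culture, so every p-value rests on library-to-library spread, which may be technical. Libraries held between 26403984 and 35213154 reads assigned to genes.

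In the textbook scheme, E2F factors bind DNA as heterodimers with a DP protein and switch on genes needed for DNA replication. RB1 and RBL1 (p107) cover the activation domain of E2F proteins in early G1, and cyclin-dependent kinases release it by phosphorylating the pocket protein. E2F1 to E2F3 are the factors that activate, E2F4 and E2F5 mostly work with RBL1 and RBL2 as repressors, and E2F6 and E2F7 repress without a pocket protein. Many of these genes are themselves E2F targets, so their RNA moves with the cell cycle.

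E2F sites were looked for just upstream of the members' starts, since members that carry them can respond to the other members. From the RefSeq table of promoters (GRCh38.p14), 9 starts of 8 of the measured members were searched. No entry of E2F5 was used. The 150 bases before each start were searched on both strands for 4 strings of 8 bases, TTTCCCGC, TTTCGCGC, TTTGCCGC and TTTGGCGC. At least 1 of them stood in 4 of the 9 windows, those of all 3 activators and of RBL1, against 632 of 35116 windows (1.8%) in the whole table. The matches overlap no other match in these windows. Matches are shown in capitals, on the gene's own strand and 5′ to 3′, because these are the 4 searched members with a match.
E2F1: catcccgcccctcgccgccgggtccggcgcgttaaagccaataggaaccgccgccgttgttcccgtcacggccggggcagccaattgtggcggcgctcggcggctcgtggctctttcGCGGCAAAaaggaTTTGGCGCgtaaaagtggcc
E2F2: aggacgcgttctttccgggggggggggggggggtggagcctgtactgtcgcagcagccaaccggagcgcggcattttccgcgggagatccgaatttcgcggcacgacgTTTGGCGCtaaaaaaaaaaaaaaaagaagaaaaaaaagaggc
E2F3: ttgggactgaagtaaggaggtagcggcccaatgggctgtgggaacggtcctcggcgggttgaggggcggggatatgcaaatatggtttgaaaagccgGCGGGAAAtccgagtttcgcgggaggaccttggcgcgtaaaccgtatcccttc
RBL1: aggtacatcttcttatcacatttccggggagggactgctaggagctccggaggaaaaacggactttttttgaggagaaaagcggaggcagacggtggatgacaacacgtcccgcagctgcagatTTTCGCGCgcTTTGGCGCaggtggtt
The E2F1 window is chr20:33686386-33686535 (minus strand), and its first base of TTTGGCGC lies 20 bases before the start. It also holds TTTGCCGC on the other strand, whose upstream end lies 33 bases before the start. RBL1, on the same chromosome at chr20:37095998-37096147 (minus strand), also held 2 matches, TTTCGCGC from 26 and TTTGGCGC from 16 bases before the start. Windows with 2 or more matches made up 28 of the 35116 (0.08%). E2F2 (chr1:23531234-23531383, minus strand) held TTTGGCGC from 42 bases before the start. E2F3 (chr6:20401729-20401878, plus strand) held TTTCCCGC on the other strand, with its upstream end 53 bases before the start, and no match at its second start. The windows of E2F4, E2F6, E2F7 and RB1 held none of these letters, and the RB1 entry lies at a start inside the gene. A match is a string of letters and not a measured binding site.

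In cells without PA the members differed widely in level. Over the 8 DMSO libraries, E2F4 had the highest median RPKM at 27.9 (20.5 to 31.1), followed by E2F1 at 17.8 (16.6 to 24.9), with ranges that overlapped. RB1 at 9.77 (7.85 to 12.1), E2F7 at 9.69 (6.04 to 10.7) and E2F3 at 9.25 (6.39 to 10.7) came next and overlapped almost fully, so their order is not resolved. E2F6 followed with 6.28 (4.68 to 7.02), overlapping E2F7 and E2F3 at its upper end and RBL1 at its lower end. RBL1 at 3.96 (2.86 to 4.73) and E2F5 at 3.24 (2.65 to 4.75) overlapped as well. E2F2 was lowest at 0.69 (0.43 to 1.22), below every DMSO library of every other member. The activators were thus represented mainly by E2F1, which made up 58.6% to 77.4% of the summed RPKM of the 3 activators in DMSO libraries.

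On GRCh38, with gene ends from GENCODE 29, E2F1 lies at chr20:33675683-33686404 and RBL1 at chr20:36996349-37095995, both on the minus strand. E2F2 lies at chr1:23506430-23531220 (minus), E2F3 at chr6:20401906-20493715 (plus) and E2F4 at chr16:67192169-67198918 (plus). E2F6 lies at chr2:11444375-11466177 and E2F7 at chr12:77021247-77065580, both on the minus strand. The tables give 1 value per gene, so isoforms such as the short form from the second E2F3 start are not separated. E2F5 and RB1 may share reads with neighbours. E2F5 (chr8:85177225-85217158, GRCh38, plus strand) overlaps a protein-coding gene on the opposite strand with a mean of 875 reads per library. RB1 (chr13:48303726-48599436) contains the opposite-strand genes RCBTB2 and LPAR6, with means of 85.9 and 12.2 reads. The strand setting of the counting is not given in the sources used here, so the values of both are uncertain to that extent.

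At 3 h no member passed the test. Levels per library are given from here on as CPM (counts scaled to library size), with library sizes scaled by edgeR's TMM method, and changes as log2 of PA over DMSO from edgeR's quasi-likelihood fit with standard errors (SE). Calls use p-values adjusted by Benjamini-Hochberg over 15181 genes with a threshold of 0.05. None of the 9 members passed at 3 h, when 1.72% of all tested genes did; none had an unadjusted p under 0.05 in edgeR and DESeq2 called none. The largest change was that of E2F3, at -0.32 ± 0.16 (adjusted p = 0.336), with 35.1 and 46.0 CPM in PA cells, against 50.9 and 50.05 CPM in DMSO cells. E2F1 stood at 59.7 and 53.2 CPM with PA, against 47.5 and 46.8 CPM with DMSO, a change of 0.26 ± 0.18 (adjusted p = 0.454). The groups of both genes did not overlap, yet neither difference passed the test.

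The other members at 3 h did not pass either. E2F2 had 3.10 and 2.30 CPM with PA, against 2.67 and 2.35 CPM with DMSO, and E2F4 had 68.4 and 69.7 CPM, against 60.3 and 67.9 CPM. E2F5 had 7.17 and 6.93 CPM with PA, against 6.16 and 7.62 CPM with DMSO, and E2F6 had 23.3 and 24.8 CPM, against 23.8 and 25.3 CPM. Except for E2F4, these groups overlapped. The pocket proteins RB1, with 37.1 and 38.6 CPM in PA cells, against 43.1 and 49.3 CPM in DMSO cells, and RBL1, with 16.9 and 17.4 CPM, against 17.7 and 24.6 CPM, were lower in both PA libraries without passing. Their changes were -0.29 ± 0.26 for RB1 (adjusted p = 0.573) and -0.30 ± 0.25 for RBL1 (adjusted p = 0.550).

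**Figure D1:**
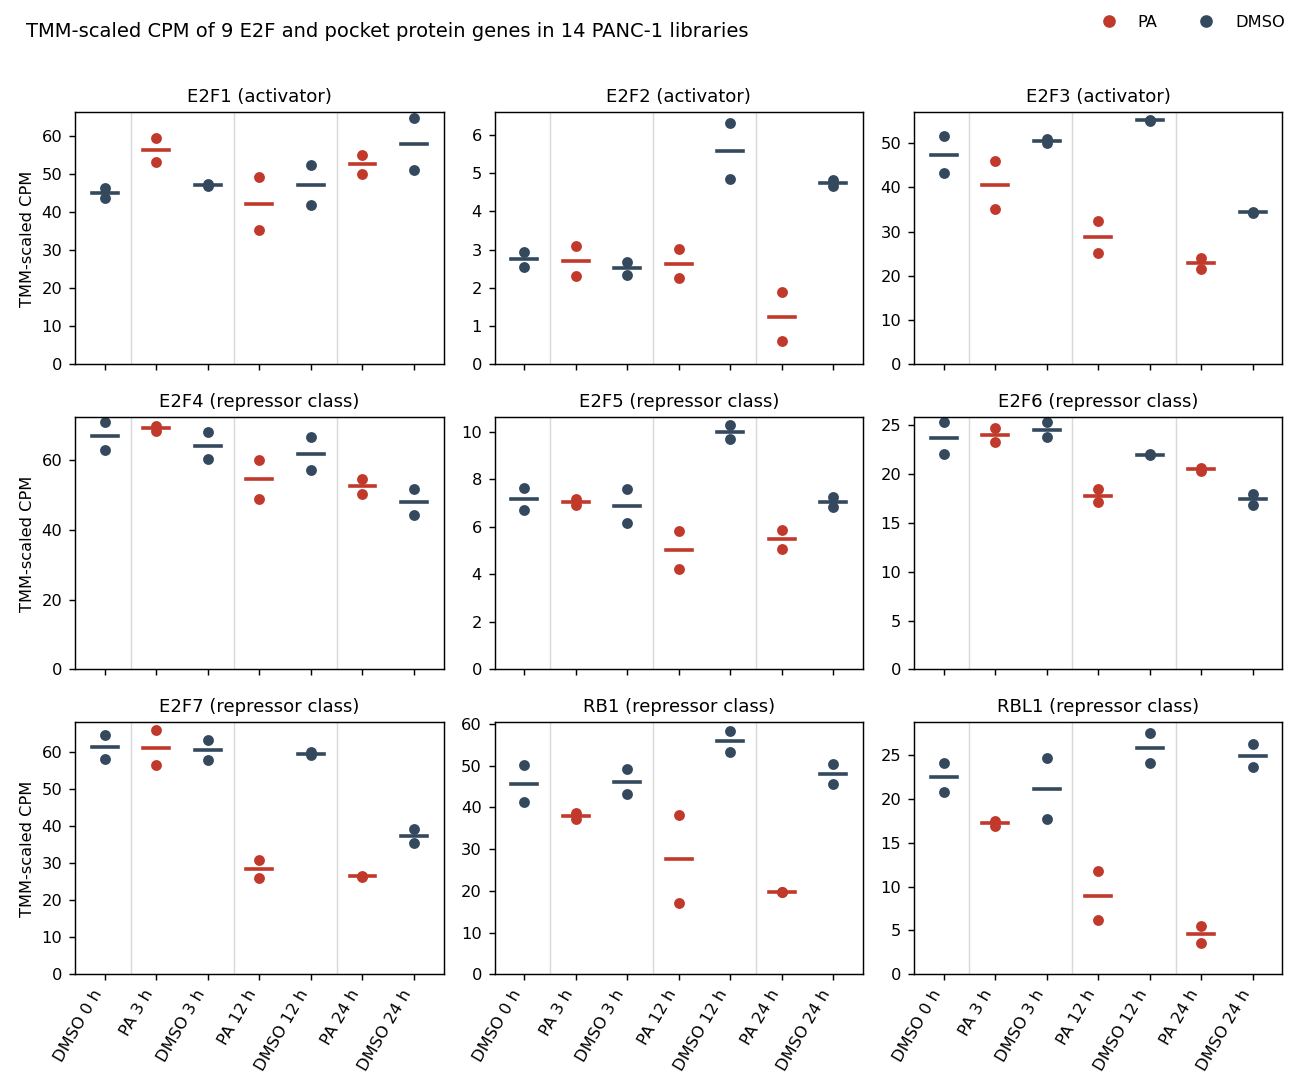
TMM-scaled CPM (vertical axes, each from 0) of the 9 measured members in all 14 libraries, with PA in red, DMSO in blue-grey, points for libraries and bars for the means of 2. At 24 h the PA libraries of RBL1 sit at 3.63 and 5.46 CPM, below every DMSO library of that gene, while those of E2F1 lie at 50.1 and 55.1 CPM among the DMSO libraries.

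At 12 h, 6 of the 9 members were lower with PA and none was higher, a share to be read against the 24.1% of all tested genes that were lower, the 24.4% that were higher and the 48.5% called in either direction. They were the activators E2F2 and E2F3 and 4 of the 6 repressor-class genes, E2F5, E2F7, RB1 and RBL1. At 24 h, 5 of 9 were lower (27.5% of all tested genes were lower, 27.2% higher and 54.6% called): E2F2, E2F3, E2F7, RB1 and RBL1. The median log2 change of the 9 was -0.99 at 12 h and -0.50 at 24 h, beside 0.0079 and -0.0082 over all tested genes. Fewer cells in a given phase of the cycle and less RNA per cell cannot be told apart in these bulk samples.

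E2F1, the most abundant activator, did not pass the test at either time. It had 49.1 and 35.4 CPM in PA cells at 12 h, against 41.8 and 52.3 CPM in DMSO cells, and the groups overlapped. After 24 h it had 55.1 and 50.1 CPM with PA, against 51.0 and 64.8 CPM with DMSO, again overlapping. The changes were -0.15 ± 0.18 (adjusted p = 0.496) and -0.14 ± 0.18 (adjusted p = 0.533, edgeR).

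E2F2, the scarcest member and an activator that overlaps in function with E2F1 and E2F3, was lower with PA at both times. At 12 h it had 3.02 and 2.25 CPM with PA, against 6.30 and 4.85 CPM with DMSO. At 24 h the PA libraries had 0.60 and 1.88 CPM (17 and 54 reads), against 4.82 and 4.66 CPM with DMSO (157 and 146 reads). DMSO cells at 0 h had 2.54 and 2.95 CPM, so at 12 h the PA values were near the 0 h values and the DMSO values above them. The PA libraries lay below the DMSO libraries at both times, and the 2 PA libraries at 24 h differed more from each other than the DMSO ones did. The change was -1.08 ± 0.34 at 12 h (adjusted p = 0.0194) and -1.93 ± 0.37 at 24 h (adjusted p = 0.000764, 3.81-fold lower). Without replicate 1 of DMSO or replicate 2 of PA the 12 h change of E2F2 was -0.89 or -0.88 and no longer passed. Without replicate 2 of PA the 24 h change was -2.98.

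E2F3, whose start above carries a reverse-strand match, was lower with PA by a smaller amount. It had 25.2 and 32.4 CPM in PA cells at 12 h, against 55.0 and 55.2 CPM in DMSO cells. The 24 h libraries had 24.1 and 21.5 CPM with PA, against 34.3 and 34.4 CPM with DMSO. The groups did not overlap at either time, and the DMSO values were themselves lower at 24 h than at 12 h. The change was -0.94 ± 0.17 at 12 h (adjusted p = 0.000709, 1.91-fold lower) and -0.59 ± 0.17 at 24 h (adjusted p = 0.00904). The 24 h call was lost without replicate 2 of PA (-0.51).

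Among the repressor E2Fs, E2F7, a repressor with a pair of DNA-binding domains that needs no DP partner, was lower at both times. At 12 h it had 26.1 and 30.8 CPM with PA, against 59.9 and 59.1 CPM with DMSO, a change of -1.06 ± 0.14 (adjusted p = 0.000110). By 24 h the gene had 26.3 and 26.6 CPM with PA, against 35.4 and 39.1 CPM with DMSO, a change of -0.50 ± 0.14 (adjusted p = 0.00944). The PA values lay close together at both times, and the DMSO values were lower at 24 h than at 12 h. The 24 h call was lost without replicate 2 of DMSO (-0.43).

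E2F5, a partner of the pocket proteins in resting cells, passed only at 12 h in edgeR. It had 4.21 and 5.82 CPM with PA at 12 h, against 9.69 and 10.3 CPM with DMSO, a change of -0.99 ± 0.20 (adjusted p = 0.00128). In the later libraries, at 24 h, it had 5.89 and 5.09 CPM with PA, against 6.82 and 7.28 CPM with DMSO, without overlap and with a change of -0.36 ± 0.20 (adjusted p = 0.133). The difference between these 2 effects was 0.63 ± 0.28 (adjusted p = 0.475).

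E2F4, the most abundant member, and E2F6, the factor of a Polycomb complex, did not pass at 12 or 24 h. E2F4 had 60.1 and 48.8 CPM with PA at 12 h, against 57.1 and 66.6 CPM with DMSO, and 50.2 and 54.7 CPM with PA at 24 h, against 44.1 and 51.7 CPM with DMSO. E2F6 had 17.1 and 18.5 CPM with PA at 12 h, against 22.1 and 21.97 CPM with DMSO, and 20.4 and 20.6 CPM with PA at 24 h, against 17.9 and 16.9 CPM with DMSO. The E2F4 groups overlapped at both times, and the E2F6 groups at neither. Their changes at 12 h were -0.18 ± 0.15 for E2F4 (adjusted p = 0.334) and -0.31 ± 0.14 for E2F6 (adjusted p = 0.0769). At 24 h they were 0.13 ± 0.15 for E2F4 (adjusted p = 0.486) and 0.23 ± 0.14 for E2F6 (adjusted p = 0.159).

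RBL1, the p107 pocket protein and a classical E2F target, had the lowest change of the 9 members at both times in this fit, though not with the offset for base composition given below, where that of E2F2 was lower. At 12 h it had 6.19 and 11.7 CPM with PA, against 27.5 and 24.1 CPM with DMSO. At 24 h it had 5.46 and 3.63 CPM with PA, against 26.2 and 23.6 CPM with DMSO, while DMSO at 0 h stood at 24.1 and 20.8 CPM. Every PA library at 12 and 24 h lay below every DMSO library of the series. The change was -1.53 ± 0.26 at 12 h (adjusted p = 0.000591, 2.88-fold lower) and -2.45 ± 0.28 at 24 h (adjusted p = 2.00e-05, 5.47-fold lower).

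RB1, the retinoblastoma protein itself, was also lower. At 24 h it had 19.6 and 19.7 CPM with PA, against 50.4 and 45.7 CPM with DMSO, a change of -1.29 ± 0.26 (adjusted p = 0.00113, 2.44-fold lower). At 12 h the PA libraries had 17.1 and 38.1 CPM, against 58.3 and 53.3 CPM with DMSO. The 2 PA libraries differed from each other by more than the nearer one differed from DMSO. The 12 h change of RB1 was -1.02 ± 0.26 (adjusted p = 0.00603). It was -0.54 without replicate 1 of PA and -1.71 without replicate 2, and did not pass in a fit of the 4 libraries of that time alone (adjusted p = 0.0822).

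**Figure D2:**
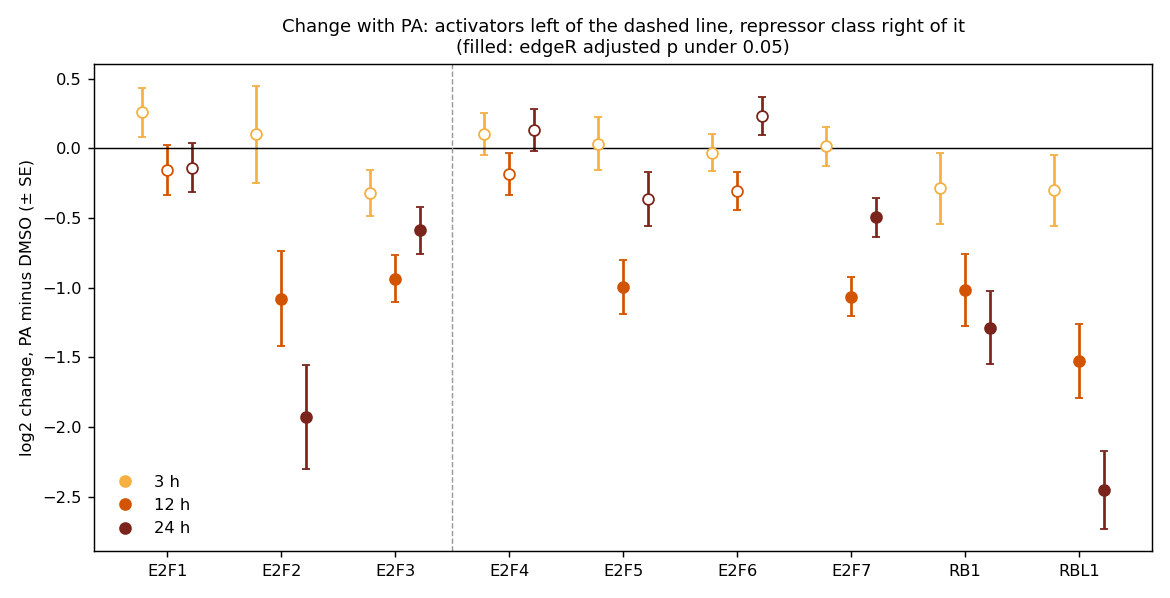
Log2 change of PA over DMSO (vertical axis) with SE for the 3 activators, left of the dashed line, and the 6 repressor-class genes, right of it, at 3, 12 and 24 h. Filled points passed edgeR's adjusted p of 0.05; they are all below 0 and lie between -0.50 and -2.45, and none is at 3 h.

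The libraries also differed in how reads depended on base composition and transcript length, and this moved with treatment. The slope of log2 level on GC content, per 10 percentage points, was 0.33 and 0.49 in the PA libraries at 24 h, against -0.27 and -0.22 in the DMSO libraries at 24 h. At 12 h it was 0.58 and 0.12 with PA, against -0.32 and -0.29 with DMSO. In each PA library it was above 0 and in each DMSO library below. Among members the transcripts of RB1 (37.3% GC), RBL1 (40.0%) and E2F7 (43.1%) are AT-rich, and those of E2F1 (62.5%), E2F4 (58.1%) and E2F2 (57.5%) GC-rich, beside a median of 48.8% over tested genes.

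With a per-library offset for GC content and length, 7 of 9 members were called at 12 h, all lower, and 5 at 24 h, 4 of them lower. In that fit 17.6% of all genes were lower, 22.7% higher and 40.2% called at 12 h, and 22.3% lower, 27.2% higher and 49.5% called at 24 h. Of the members called, only 5 at 12 h and 2 at 24 h were calls of the fit without it. E2F2 (-1.46 at 12 h and -2.29 at 24 h) and RBL1 (-0.69 and -1.60) were lower either way. E2F3, E2F5 and E2F7 also stayed called at 12 h, with -0.62, -0.92 and -0.50. E2F1 was called lower at both times (-0.89 and -0.89, adjusted p = 5.64e-05 and 2.95e-05), and so was E2F4 (-0.76 and -0.47), which turns the sign of its 24 h change. RB1 was no longer called (-0.0015 at 12 h, adjusted p = 0.994, and -0.24 at 24 h, adjusted p = 0.139). At 24 h E2F3 (-0.20) and E2F7 (0.11) lost their calls, E2F7 with a turned sign, and E2F6 was called higher (0.62, adjusted p = 0.000384). At 24 h, E2F2 and RBL1 were the 2 members called lower in both fits. On the authors' RPKM scale, where the median over all genes shifted by -0.13 at 12 h and -0.28 at 24 h, limma on log2(RPKM + 1) also called E2F4 (-0.30) and E2F6 (-0.37) at 12 h and E2F1 (-0.43) and E2F5 (-0.46) at 24 h.

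**Figure D3:**
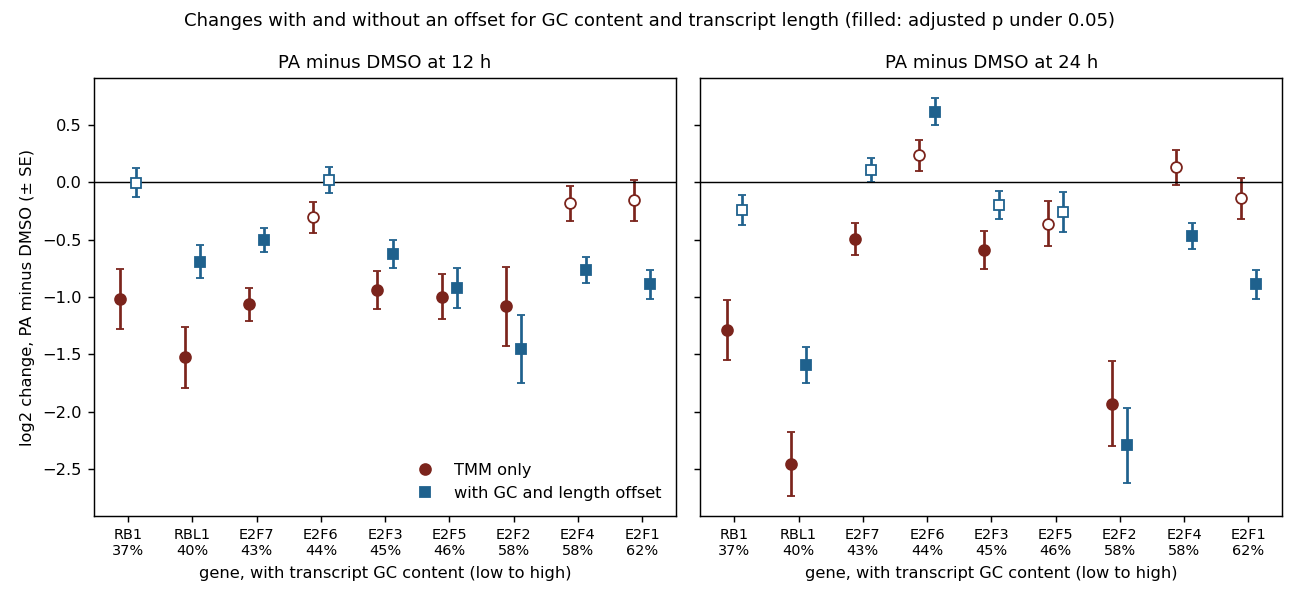
Log2 change of PA over DMSO with SE at 12 h (left) and 24 h (right) for the 9 members, ordered by transcript GC content, without (circles) and with (squares) the offset for GC content and length. Filled symbols have an adjusted p under 0.05; the offset moves AT-rich RB1 at 24 h to -0.24 and GC-rich E2F1 to -0.89, turns E2F4 and E2F7 at 24 h, and leaves E2F2 and RBL1 called.

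Activators and repressor-class genes were then set against each other. Of the activators 2 of 3 were lower at 12 h and 2 of 3 at 24 h, and of the repressor class 4 of 6 and 3 of 6, beside the 24.1% and 27.5% of all tested genes that were lower. Within that class both pocket proteins were lower at both times, and of the 4 repressor E2Fs 2 were lower at 12 h and 1 at 24 h. With the offset these counts differed: RBL1 was the one pocket protein called, all 3 activators were lower at 12 h and 2 at 24 h, and of the repressor E2Fs 3 were lower at 12 h, and 1 lower and 1 higher at 24 h. Class levels were taken per library as the mean log2(RPKM + 0.1) over genes. The activator mean minus the repressor mean was -0.07 and -0.65 in PA libraries at 12 h, against -0.53 and -0.53 in DMSO libraries. At 24 h it was -0.64 and -0.30 with PA, against -0.41 and -0.32 with DMSO. The groups overlapped at both times.

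PA minus DMSO, this balance moved by 0.07, 0.17 and -0.10 at 3, 12 and 24 h, with pooled SDs of 0.15, 0.29 and 0.17 (n = 2 per group). On this RPKM scale, without the offset, the shift over all 9 members was thus smaller than the spread between replicates at each time. At 24 h its sign turned with a pseudocount of 1 (0.11). The balance was not computed with the offset. At 24 h the offset gave E2F1 -0.89 in place of -0.14, RB1 -0.24 in place of -1.29 and E2F4 -0.47 in place of 0.13. Without RB1 and RBL1 the 24 h balance was -1.18 and -0.94 with PA, against -0.41 and -0.39 with DMSO, without overlap, a shift of -0.66 with a pooled SD of 0.12. At 3 and 12 h that shift was -0.037 and -0.055, within pooled SDs of 0.13 and 0.15. The 24 h shift without the pocket proteins includes E2F2, whose PA values of 0.08 and 0.29 RPKM lie near the pseudocount of 0.1. Its DMSO values were 0.91 and 0.86 RPKM. That balance was not computed with another pseudocount or without E2F2. Over all 9 members the 24 h shift was 0.06 without replicate 1 of PA and -0.27 without replicate 2. The share of E2F1 among the activators also differed in value: E2F1 made up 82.4% and 81.6% of their summed RPKM in PA cells at 24 h, against 73.0% and 77.4% in DMSO cells. At 12 h the shares were 78.2% and 68.0% with PA, against 58.6% and 64.2% with DMSO. At 3 h, when no member passed, they were 76.3% and 69.5% with PA, against 64.7% and 64.9% with DMSO. The PA and DMSO groups did not overlap at any of these times, and with 2 libraries each an exact two-sided permutation test cannot go below p = 0.333. The DMSO share itself stood at 62.5% and 67.6% at 0 h, lower than at 24 h. These shares were of RPKM without the offset and were not computed with it. With the offset E2F1 changed by -0.89 at both times, E2F3 by -0.62 and -0.20 and E2F2 by -1.46 and -2.29 at 12 and 24 h.

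**Figure D4:**
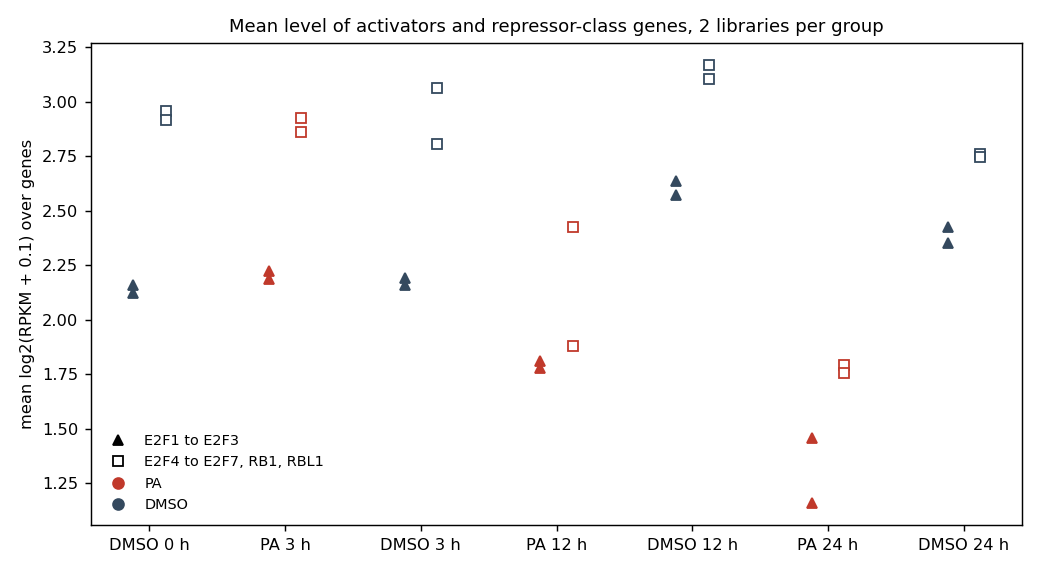
Mean log2(RPKM + 0.1) of the 3 activators (filled triangles) and the 6 repressor-class genes (open squares) in each library, with PA in red and DMSO in blue-grey. Both means are lower with PA at 12 and 24 h, and the activator mean stays below the repressor mean in every library.

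Whether the PA effect differed between times was tested by the difference of the effects. From 3 to 12 h it differed for 1 of 9 members, E2F7, by -1.08 ± 0.20 (adjusted p = 0.0149), when 2.79% of all tested genes passed. At 3 h E2F7 had 56.4 and 65.9 CPM with PA, against 57.7 and 63.3 CPM with DMSO. That call was lost in 4 of the 8 fits that left out 1 library, those without PA 3 h replicate 2 (-0.96), DMSO 3 h replicate 1 (-1.01) or either DMSO library at 12 h (-1.10 and -1.12). Without PA 12 h replicate 2, 5 members passed. Between 24 and 12 h the effect differed for 0 of 9 members in edgeR (0.422% of all tested genes), 4 had an unadjusted p under 0.05, and DESeq2 called 0.

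Time alone was followed in the DMSO cells, where 1 member passed at 1 of 3 times. Against 0 h, 0 of 9 members passed at 3 h (0% of all tested genes) and 0 of 9 at 12 h (1.46%), with 0 and 2 members at an unadjusted p under 0.05 and 0 called by DESeq2. At 24 h E2F7 passed (2.46% of all tested genes), with 35.4 and 39.1 CPM at 24 h, against 64.65 and 58.2 CPM at 0 h, a change of -0.72 ± 0.14 (adjusted p = 0.0159). That call was lost when any of the 4 libraries was left out (-0.60 to -0.80). E2F2 differed by 1.02 ± 0.34 at 12 h (adjusted p = 0.149) and 0.79 ± 0.34 at 24 h (adjusted p = 0.257) without passing. At 0 h the remaining members had 43.7 and 46.4 CPM (E2F1), 51.6 and 43.2 CPM (E2F3), 63.0 and 70.9 CPM (E2F4), 6.70 and 7.65 CPM (E2F5), 22.03 and 25.4 CPM (E2F6) and 50.1 and 41.2 CPM (RB1). E2F4 and E2F6 stood lower in both DMSO libraries at 24 h than in either at 0 h, with differences of -0.48 ± 0.15 (adjusted p = 0.115) for E2F4 and -0.45 ± 0.14 (adjusted p = 0.104) for E2F6.

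The genes around the members were counted from 9 lists of 78 genes, of which 73 were tested. Counts in these lists are to be read beside all tested genes, of which 1.72% were called at 3 h. At 12 h 24.1% of all tested genes were lower and 24.4% higher, and at 24 h 27.5% were lower and 27.2% higher. With the offset 17.6% were lower and 22.7% higher at 12 h, and 22.3% lower and 27.2% higher at 24 h. Of the DP partners, TFDP1, the main partner of the E2Fs, was lower with PA (-0.48 ± 0.12 at 12 h and -0.88 ± 0.12 at 24 h). TFDP2 was lower at 24 h only (-0.51 ± 0.17), a call lost without replicate 1 of PA (-0.41) or of DMSO (-0.38) and with the offset (-0.17). TFDP3 had at most 3 reads in a library. In all, 0, 1 and 2 of 2 tested partners were lower at 3, 12 and 24 h.

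The third pocket protein and the MuvB core hold cell-cycle genes silent in the DREAM complex and switch on mitotic genes with MYBL2 and FOXM1. Of the 7 tested genes of this list, which includes MYBL2 and FOXM1, none passed at 3 h. At 12 h 3 were lower and 1 higher, and the higher one was neither RBL2 nor a gene of the core. At 24 h 5 were lower (median -0.79). RBL2, the p130 pocket protein, had 13.7 and 14.1 CPM with PA at 24 h, against 27.3 and 30.2 CPM with DMSO, a change of -1.05 ± 0.18 after -0.71 ± 0.18 at 12 h. The 12 h call of RBL2 was lost without replicate 1 of PA (-0.48) or of DMSO (-0.58) and with the offset (-0.19), and with the offset the 24 h change was -0.47. LIN9 (-1.70 ± 0.44 and -2.26 ± 0.45) and LIN54 (-1.49 ± 0.30 and -1.73 ± 0.31) were lower at both times, and RBBP4 at 24 h (-0.79 ± 0.13), where the offset gave -0.012 and no call. LIN9 at 12 h lay between -1.05 without replicate 1 of PA and -2.93 without replicate 2.

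On the kinase side, of 9 G1 cyclins, kinases and CDC25A, which drive phosphorylation of pocket proteins, 6 were lower and 1 higher at 12 h, and 6 lower and 2 higher at 24 h. CCNE2, a cyclin E gene and E2F target, had 1.23 and 0.91 CPM with PA at 24 h, against 7.62 and 9.74 CPM with DMSO, a change of -3.02 ± 0.39 after -2.30 ± 0.36 at 12 h. CCNE1 (-0.83 ± 0.14 and -0.99 ± 0.15), CCNA2 (-0.85 ± 0.19 and -1.73 ± 0.19) and CDC25A (-1.19 ± 0.18 and -1.30 ± 0.18) were lower at both times. The higher ones, singled out after their values were seen, were CDK4 at both times and CCND3 at 24 h. When single libraries were left out, the number higher was 0 to 2 at both times, and with the offset it was 1 at 12 h and 0 at 24 h, with 6 lower at each.

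Of 5 tested kinase inhibitors, which keep pocket proteins active, 1 was higher at 3 h, 3 at 12 h and 4 at 24 h, and 1 was lower at 24 h. When any 1 library was left out, 3 were higher at 24 h. With the offset 2 were higher and 1 lower at 12 h, and 3 higher and 1 lower at 24 h. CDKN1A (p21) had 89.7 and 116 CPM with PA at 24 h, against 17.9 and 20.9 CPM with DMSO, a change of 2.40 ± 0.18 after 1.59 ± 0.18 at 12 h and 0.79 at 3 h (adjusted p = 0.0344). Its level in DMSO cells was itself lower than at 0 h, with changes of -1.53 at 12 h (adjusted p = 0.00119) and -1.45 at 24 h (adjusted p = 0.000836). At 12 h it had 63.3 and 47.2 CPM with PA, against 17.5 and 19.2 CPM with DMSO, while DMSO at 0 h stood at 49.6 and 56.4 CPM, between the PA values. CDKN2D (0.98 ± 0.22 and 1.26 ± 0.22) and CDKN1C (1.92 ± 0.26 and 0.98 ± 0.24) were higher at both times, but with the offset CDKN2D at 12 h (0.26) and CDKN1C at 24 h (0.15) were not called. CDKN2C, the gene of p18, was lower at 24 h (-0.54 ± 0.13). CDKN2A, known to be deleted in PANC-1, and its neighbour CDKN2B had at most 3 reads in a library and 6 reads each in all.

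Of 20 G1/S genes known as E2F targets, none passed at 3 h. At 12 h 14 were lower and 1 higher, and at 24 h 16 were lower and 1 higher, with medians of -0.69 and -1.12. The 1 higher was TK1, thymidine kinase, named after its values were seen, and it was not called at 24 h in any fit that left out 1 library. MCM10, a replication initiation factor, had 9.66 and 9.87 CPM with PA at 24 h, against 48.4 and 50.7 CPM with DMSO, a change of -2.34 ± 0.19 after -1.60 ± 0.18. MCM4 (-0.74 ± 0.11 and -1.50 ± 0.12), MCM3 (-0.74 ± 0.13 and -1.33 ± 0.13) and UHRF1 (-1.52 ± 0.16 and -1.91 ± 0.17) were lower at both times. With the offset for GC content and length, 17 of 20 were lower at 12 h and 19 at 24 h, and none was higher. In that fit 17.6% of all genes were lower at 12 h and 22.3% at 24 h.

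**Figure D5:**
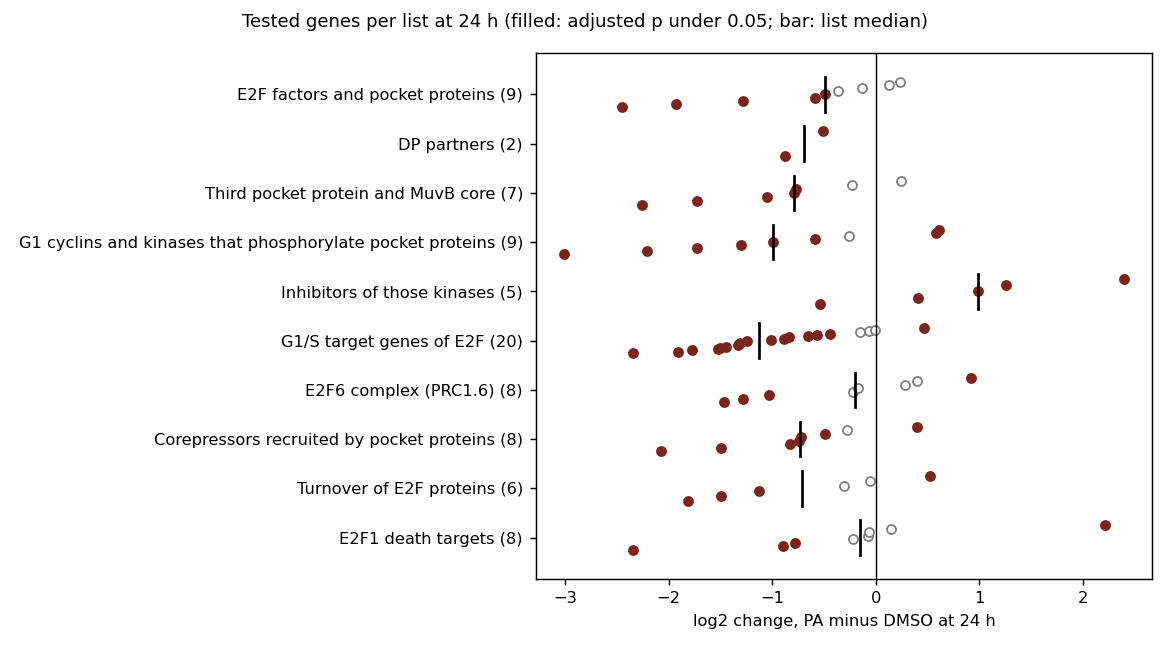
Log2 change of PA over DMSO at 24 h (horizontal axis) of the tested genes of the 9 measured members and of 9 lists, with the number tested in brackets, filled points for adjusted p under 0.05 and black bars for medians. The G1/S targets lie mostly left of 0 (median -1.12) and the kinase inhibitors mostly right of it.

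The E2F6 complex, a Polycomb complex that represses E2F targets, was mixed, with 3 higher and 3 lower of 8 at 12 h and 1 higher and 3 lower at 24 h. The number higher at 12 h was between 1 and 3 when single libraries were left out. MGA (-0.99 ± 0.19 and -1.47 ± 0.19), PCGF6 (-1.20 ± 0.22 and -1.28 ± 0.22) and CBX3 (-1.10 ± 0.22 and -1.03 ± 0.22) were lower at both times, but the 12 h call of MGA was lost with the offset (-0.24). RING1 was higher (0.75 ± 0.20 and 0.92 ± 0.20), a call lost at 12 h without replicate 1 of PA (0.45) or of DMSO (0.64). With the offset RING1 was called at neither time (0.010 and 0.14). Of 8 corepressors recruited by pocket proteins, 1 was lower at 3 h (ARID4A), 4 were lower and 1 higher at 12 h, and 6 lower and 1 higher at 24 h. ARID4A, an RB1-binding protein, changed by -2.45 ± 0.25 and -2.07 ± 0.24. EZH2, a methyltransferase and E2F target, changed by -1.08 ± 0.15 and -1.49 ± 0.15, HDAC2 by -0.70 ± 0.18 and -0.83 ± 0.18, and SMARCA4 by -0.57 ± 0.16 and -0.72 ± 0.16. The 12 h calls of HDAC2 and SMARCA4 were lost without DMSO replicate 2 (HDAC2, -0.64), PA replicate 1 (HDAC2, -0.42) or DMSO replicate 1 (SMARCA4, -0.51).

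Of 6 genes that turn over E2F proteins, 2 were lower and 1 higher at 12 h, and 3 lower and 1 higher at 24 h. Among all tested genes, 48.5% were called in either direction at 12 h and 54.6% at 24 h, also beside the death targets below. SKP2 (-0.98 ± 0.22 and -1.81 ± 0.23) and CCNF (-0.77 ± 0.13 and -1.50 ± 0.13), both parts of SCF ubiquitin ligases, were lower at both times, but SKP2 at 12 h lost its call with the offset (-0.30). CDC20 was lower at 24 h (-1.13 ± 0.18). FZR1 was higher (0.47 ± 0.18 and 0.52 ± 0.18), and its calls were lost in 3 of 4 fits that left out 1 library at each time (0.18 to 0.48 at 12 h, 0.39 to 0.58 at 24 h). Of 8 genes known as death targets of E2F1, 1 was lower at 3 h (CASP8AP2), 4 lower and 1 higher at 12 h, and 3 lower and 1 higher at 24 h. BBC3, which encodes PUMA and is also a p53 target, was the higher one (1.29 ± 0.23 and 2.21 ± 0.21), with 0.42 and no call at 12 h with the offset. CASP8AP2 (-3.78 ± 0.40 and -2.35 ± 0.37), TP73 at 24 h (-0.89 ± 0.26) and APAF1 (-0.50 ± 0.19 and -0.78 ± 0.19) were lower. TP73 lost its call without replicate 2 of PA (-0.83) or of DMSO (-0.73). APAF1 lost its 12 h call in 3 of 4 such fits (-0.23 to -0.57), and with the offset it was called at neither time (0.23 at 12 h and -0.014 at 24 h).

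With the offset, 3 corepressors were higher and 4 lower at 12 h and 2 higher and 4 lower at 24 h, and of the death targets 1 was higher and 2 lower at 12 h and 3 higher and 2 lower at 24 h. The signs of HDAC2 and FZR1 turned at both times with it, and those of RBBP4, CDKN2C and APAF1 at 12 h. The 5 epithelial markers, read as a check of the labelled cell type, were split. KRT8 lay between 1276 and 3620 RPKM in PA libraries and between 973 and 1167 RPKM in DMSO libraries. KRT18 and KRT19 reached at least 1022 and 356 RPKM in every library. KRT7 was low, at 5.09 to 9.41 RPKM with PA, against 3.47 to 5.62 RPKM with DMSO. So was EPCAM, at 1.64 to 2.98 RPKM with PA, against 2.45 to 2.88 RPKM with DMSO. The summed level of 5 epithelial markers was 3205 to 8262 RPKM with PA, against 2391 to 2857 RPKM with DMSO, and its part in the results was not tested. Of 14 markers of fibroblasts, leukocytes and endothelium, 11 stayed under 1 RPKM in every library, PTPRC (at most 0.02), DCN (at most 0.01) and PECAM1 (at most 0.04) among them. Their summed levels were 2.34 to 4.12 RPKM with PA, against 1.18 to 3.85 RPKM with DMSO for 5 fibroblast markers, 23.5 to 36.2 against 17.1 to 23.1 for 5 leukocyte markers, and 0.03 to 0.21 against 0.09 to 0.20 for 4 endothelial markers. COL1A1, CD14 and CD68 were the 3 that did not, the highest being CD68 at 22.7 to 33.9 RPKM with PA, against 16.1 to 22.6 RPKM with DMSO.

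Genes with a pattern like that of the most changed activator and repressor-class gene were named by Pearson's r of log2 CPM over the 14 libraries, among 9638 genes of at least 5 CPM on average. For E2F2 they were RDH10 (r = 0.94), RMI2 (r = 0.93) and SMYD4 (r = 0.92). For RBL1 they were ERCC6L (r = 0.99), TMPO (r = 0.99) and DEPDC1 (r = 0.99). The libraries share treatment groups, so these values are a description only.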

How the data were processed

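Per the labels' protocols, cells were lysed in Trizol and libraries run on an Illumina NextSeq 500. The submitters' processing notes name TopHat2, edgeR and GRCh38; for the counting tool, annotation and strand setting the sources used here give nothing. The authors deposited raw counts per gene (whole numbers) and RPKM values, normalized by them for gene length and library total. The members, lists and tests were chosen with earlier results of these data known.

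Counts were fitted in R 4.3.3 with edgeR 4.0.16 (TMM, filterByExpr by group, 15181 genes, 7 group means, 7 residual degrees of freedom, quasi-likelihood tests, Benjamini-Hochberg adjustment). RPKM was used for levels between genes and class means (pseudocount 0.1). The fit was tested on simulated data. Coordinates, GC content and transcript length come from GENCODE 29; 99.3% of tested genes had both. The biological coefficient of variation was 15.1%. Named genes were all members and, of each list, up to 4 tested genes with the smallest p at 24 h, with TFDP1, RBL2 and CDKN2A. DESeq2 1.42.0 and limma 3.58.1 on log2(RPKM + 0.1 or 1), other filters and scalings, a GC and length offset (splines with 5 degrees of freedom), a replicate block and leaving out each library were alternatives.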

Additional observations from a re-analysis of the deposited data

Results flagged for a closer look

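1 result was picked out because the effect of PA on the same gene differed between 2 times by a test of the difference itself. The PA effect on E2F7 at 12 h minus that at 3 h was -1.08 ± 0.20 on the log2 scale (edgeR quasi-likelihood test, Benjamini-Hochberg adjusted p = 0.0149). At 12 h the 2 PA libraries of E2F7 were lower than either DMSO library, and at 3 h the groups overlapped. Leaving out 1 library moved the difference between -0.96 and -1.21, and some of those fits lost the call, as given above. A fit of the libraries of this comparison only did not call it.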

How the results depend on the processing

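Of the alternatives run for the 9 members over all comparisons, 1010 values counted as kept, 52 uncalled values moved by more than their error, 20 lost a call, 58 gained one and 4 reversed. Kept values were called in both fits with the same sign, or uncalled in both and within their error of the main value. For the other named genes the numbers were 928, 10, 59, 5 and 14. Sign changes of values uncalled in both fits were not counted as reversed, and those within the error count among the kept. All 18 reversals came from the GC and length offset, alone or with the replicate block: E2F4 at 24 h -0.47 and -0.47, E2F7 at 24 h 0.11 and 0.11, RBBP4 at 12 h 0.50 and 0.49, CDKN2C at 12 h -0.51 and -0.51, HDAC2 at 12 h 0.40 and 0.40 and at 24 h 0.21 and 0.21, FZR1 at 12 h -0.14 and -0.14 and at 24 h -0.088 and -0.087, APAF1 at 12 h 0.23 and 0.22. The cause was not tested. The number of members called with PA at 3, 12 and 24 h (0, 6 and 5) stayed within 1.5 times in every alternative. The members called did not stay the same: of the 5 called at 24 h with the offset, only E2F2 and RBL1 were calls of the main fit.

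No label says that the replicate numbers pair the libraries. Correlations of same-numbered deviations ran from -0.61 to 0.61 over 21 pairs of groups, 7 of them over 0.1. They cannot decide whether libraries of 1 number shared a culture or day, since each deviation also holds the library's dependence on GC content. The replicate block changed no member count; it gave 23 genes in place of 64 for the PA effect at 24 h minus 12 h and 113 in place of 221 for DMSO at 12 h minus 0 h.

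Genes called by PA at 3 h (261, of them 21 higher and 240 lower) numbered 582 with DESeq2 (161 higher, 421 lower), 1115 without a filter, 1183 in the libraries of the comparison only, 118 with limma on log2(RPKM + 0.1), 654 with the offset (275 higher, 379 lower) and 511 with offset and block. At 12 h (7363) the libraries of the comparison only gave 3671. For the PA effect at 12 h minus 3 h, members called (1) numbered 3 with DESeq2, 4 without a filter, 0 in own libraries, 2 with limma on log2(RPKM + 1), with or without its filter, and 5 with the offset, with or without block; genes (423) numbered 1208, 1808, 46, 250 with limma on log2(RPKM + 0.1), 1063 with the offset and 930 with the block added. For 24 h minus 12 h, members (0) numbered 2 with the offset, and genes (64) 203 with DESeq2, 269 without a filter, 0 in own libraries, 315 with the offset and 253 with the block added.

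In DMSO cells at 3 h, genes called (0) numbered 11 without a filter and 1 with limma on log2(RPKM + 0.1). At 12 h members (0) numbered 1 without a filter, 2 in own libraries and 1 with the offset, and genes (221) 688 with DESeq2, 849 without a filter, 2850 in own libraries, 142 with limma on log2(RPKM + 0.1), 814 with the offset and 634 with the block added. At 24 h members (1) numbered 6 in own libraries, 4 with the offset and 4 with the block added, and genes (373) 759, 703, 2644, 1373 and 1218 with DESeq2, no filter, own libraries, the offset and offset with block.

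When single libraries were left out, members called ranged from 5 to 6 at 12 h, 4 to 5 at 24 h, 0 to 5 for 12 h minus 3 h and 0 to 1 for 24 h minus 12 h, and were 0 at 3 h and in each DMSO comparison. Genes called ranged from 28 to 182 at 3 h, 4462 to 8673 at 12 h, 6098 to 7510 at 24 h, 43 to 4957 for 12 h minus 3 h, 4 to 522 for 24 h minus 12 h, 4 to 59 for DMSO at 12 h and 27 to 104 for DMSO at 24 h. The balance of activators and repressors ranged from -0.07 to 0.21 at 3 h, -0.12 to 0.46 at 12 h and -0.27 to 0.06 at 24 h, where a pseudocount of 1 gave 0.11 and leaving out RB1 and RBL1 gave -0.66. No member failed the filter on low counts, so the balance without such members is the balance itself. The change of E2F2 at 24 h rests on 17 to 157 reads per library.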
